A study of Homo sapiens with 16 samples.

Results

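Huh7 is an established human HCC line with hepatocyte-like gene expression, and the 2 libraries labelled Huh7 DMSO were compared here with the 2 libraries of parental Huh7 cells. These 4 libraries were taken by their titles and are 4 of the 16 RNA libraries of the series. The series holds parental and DMSO cells of Huh7 and of a second HCC line, Hep3B, and cells of both lines made resistant to the kinase inhibitor Sorafenib, either under increasing (IR) or under constant (CR) concentrations. Each of these 8 groups has 2 libraries. Both Huh7 groups are cells of the same line, for which the labels name no engineered allele, and both are labelled as untreated with Sorafenib. DMSO is the solvent in which Sorafenib is dissolved, and neither the labels nor the methods used here give its dose, the length of exposure or how long the DMSO cells were kept apart from the parental cells. The growth notes describe parental, IR and CR cells in serum-containing DMEM and do not mention the DMSO cells. The solvent, the time in culture and any passage under the conditions of the resistant cells can therefore not be told apart in this comparison. The methods speak of biological triplicates, of which 2 libraries per group are analysed here. Nothing says whether replicates 1 and 2 came from separate cultures, so the p-values measure spread between libraries. That spread, and each SE given here, was taken over all 16 libraries in 8 groups and not from the 4 compared alone.

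A hepatocyte secretes most plasma proteins, assembles lipoproteins, and runs gluconeogenesis, the urea cycle, bile acid synthesis and drug metabolism. These tasks are held together by a small network of transcription factors, among them HNF4A, the FOXA factors, CEBPA and nuclear receptors such as NR1H4 and PPARA. HCC lines keep part of this program and lose much of the rest, and DMSO added to culture medium is widely known as an agent that favours differentiation of hepatoma cells. Low oxygen stabilizes HIF1A, which binds DNA at the core letters ACGTG and induces genes of glycolysis, glucose uptake and angiogenesis.

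The parental libraries held 68722229 and 74663662 reads and the DMSO libraries 72504330 and 69618365, within the range of 46613302 to 76860251 over the series. Values are CPM, the reads of a gene scaled to a common total per library, and changes are differences of log2(CPM + 1), which understate the change of genes near or under 1 CPM. Albumin at 3710.1 and 3629 CPM and AFP at 3549 and 6269 CPM were abundant in the parental libraries, as is known for this hepatocyte-derived line. CYP7A1, the first enzyme of bile acid synthesis, was at 0 CPM in all 4 libraries. The 10 endothelial markers summed to 1.90 to 7.64 CPM with 4 to 6 of them at 0 per library, and the 14 leukocyte markers summed to 31.6 to 45.5 CPM with 4 to 7 at 0, and the B cell gene MS4A1 was at 0 in all 4. The 14 fibroblast and stellate cell markers summed to 400 to 586 CPM, led by LUM, with 1 to 3 at 0. The part of these markers in the results was not tested.

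A gene was called when its Benjamini-Hochberg adjusted p in limma was under 0.05 and its log2 fold change was at least 0.58 in size. Of 15019 genes tested, 520 were called higher in DMSO than in parental cells (3.46%) and 206 lower (1.37%), together 726 (4.83%). These calls use the spread shared over all 16 libraries, and a fit of the 4 libraries alone called 0 higher and 0 lower (unadjusted 833 and 381). Of the 8 groups, Huh7 DMSO had the largest SD of the difference between replicates, at 0.571, so the shared spread comes in part from groups with closer replicates. In all 726 both DMSO libraries lay beyond both parental libraries, which over all genes was the case for 28.7% upward and 21.6% downward. The call rule favours this, so that for a called gene it is no further support. The 2 DMSO libraries did not share in the change equally. DMSO replicate 2 was at least 2-fold above the parental mean in 1685 genes and DMSO replicate 1 in 270, and at least 2-fold below it in 376 and 125 genes. Of the 520 genes called higher, 420 were at least 2-fold above the parental mean in replicate 2 and 219 in replicate 1, and 468 lay further from it in replicate 2. The number of calls rested on single libraries. Without DMSO replicate 1 there were 2361 higher and 1203 lower calls, without DMSO replicate 2 there were 108 and 40, without parental replicate 1 there were 118 and 31, and without parental replicate 2 there were 129 and 75. Leaving out any of the other 10 libraries except those of Huh7 IR, which enter the fit only through the shared spread, gave 292 to 359 higher and 115 to 140 lower calls, and leaving out a Huh7 IR library gave 718 or 721 higher and 305 lower. The share of higher calls was 71.6%, and it was lower under other scalings, at 62.8% with TMM factors (499 higher and 295 lower), 60.2% after GC correction (577 and 381) and 56.3% after quantile normalization (374 and 290).

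**Figure D1:**
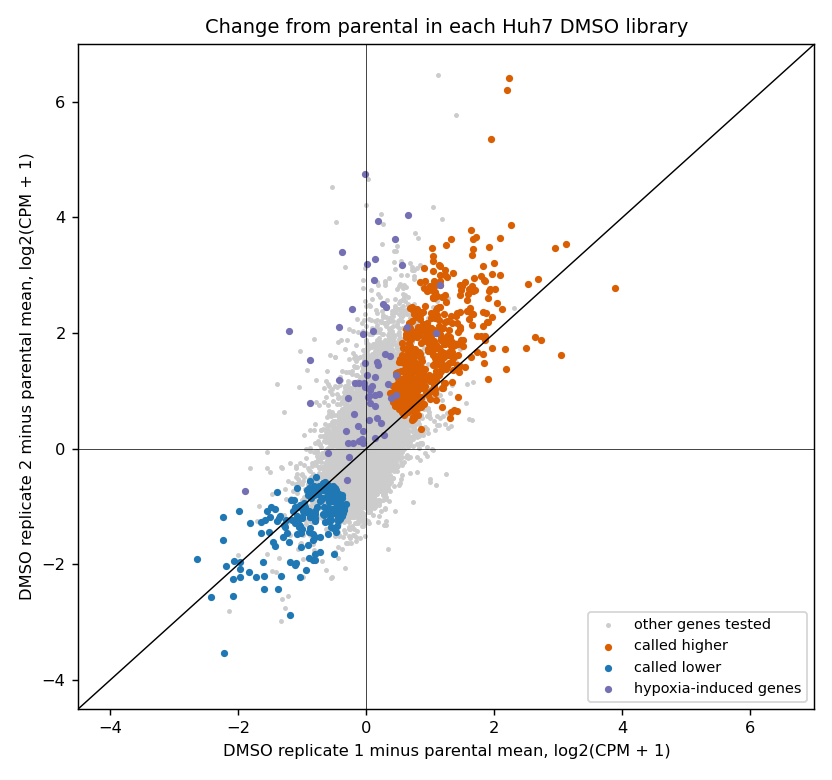
Change of each gene in the Huh7 DMSO libraries, as log2(CPM + 1) minus the parental mean, with replicate 1 on the horizontal and replicate 2 on the vertical axis. Points are genes, colours mark called genes and hypoxia-induced genes, and the diagonal is equal change in both. Replicate 2 was at least 2-fold above the parental mean in 1685 genes and replicate 1 in 270.

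Hepatocyte genes were taken as 7 lists that hold 278 genes of the table, of which 218 passed the filter of 1 CPM in at least 2 libraries. Of these 218, 30 rose (13.8%, beside 3.46% of all genes tested) and 0 fell in limma. The counts were 75 and 2 at an unadjusted p under 0.05, 24 and 0 in edgeR and 50 and 2 in DESeq2. Over all 15019 genes tested these rules gave 1603 and 568, 568 and 244, and 1284 and 549, beside which the same counts of each list below stand. After GC correction limma called 32 and 2, beside 577 and 381 over all genes. The filter counts all 16 libraries. Genes near 0 CPM in parental cells, such as HAMP, ARG1 and SERPINC1, could thus pass it and hardly be called lower. At a mean of at least 5 CPM limma called 21 and 0 of 157. The median log2 fold change of the 218 genes was 0.55, beside 0.05 for all genes tested, and it was 0.53 with TMM factors, 0.44 after quantile normalization and 0.44 after GC correction. In replicate 1 the median lay 0.30 above the parental mean, and in replicate 2 it lay 0.74 above it. The number of higher hepatocyte calls was 74 without DMSO replicate 1, 5 without DMSO replicate 2, 4 without parental replicate 1 and 10 without parental replicate 2. By list the share called higher in limma ran from 0% to 24.3%. All 278 genes together summed to 20887 and 24414 CPM in the parental libraries and to 36846 and 42282 CPM in the DMSO libraries. Much of this lay in secreted plasma proteins, at 8890 and 9171 CPM against 20335 and 24609 CPM. Albumin alone, which was not called, was at 3710 and 3629 CPM against 9739 and 13244 CPM. Drug metabolism enzymes summed to less in DMSO cells, at 3382 and 3646 CPM against 2881 and 3257 CPM. In bulk RNA a change in the share of cells that express a gene and a change of RNA per cell cannot be told apart.

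**Figure D2:**
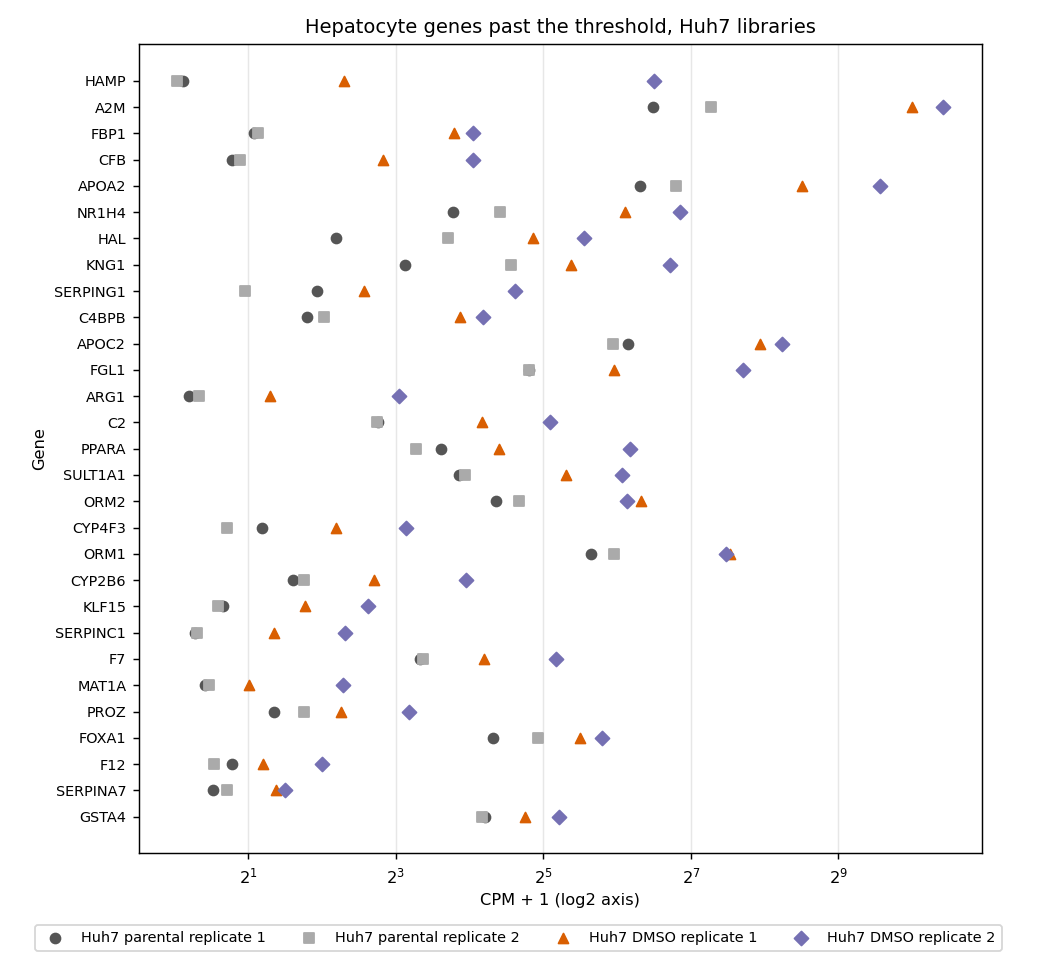
Of the 30 hepatocyte genes called higher in Huh7 DMSO cells, 29 are shown, with CPM + 1 of each of the 4 libraries on a log2 axis. The 2 DMSO libraries lie above both parental libraries for every gene shown, which the call rule favours, and 10 of the genes are at least 2-fold higher in DMSO replicate 2 than in replicate 1.

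Among the 30 transcription factors tested, 4 rose (13.3%, beside 3.46% of all genes tested) and 0 fell. These counts were 10 and 1 at an unadjusted p under 0.05, 4 and 0 in edgeR and 7 and 1 in DESeq2. The median log2 fold change was 0.24. After GC correction it was 0.09, with 5 higher and 2 lower calls, beside 577 and 381 over all genes tested. NR1H4 (FXR), the nuclear receptor for bile acids, was at 12.6 and 20.4 CPM in parental cells and at 67.9 and 114 CPM in DMSO cells, a log2 fold change of 2.39 ± 0.47 (SE, n = 2, adjusted p = 0.0176). Both DMSO libraries were far above both parental ones. PPARA, the receptor that drives fatty acid oxidation genes, was at 11.2 and 8.68 CPM against 20.0 and 71.3 CPM and rose by 1.84 on the log2 scale (adjusted p = 0.0402). Most of this rise stood in DMSO replicate 2. KLF15, a factor of fasting metabolism, went from 0.582 and 0.509 CPM to 2.40 and 5.19 CPM (log2 fold change 1.57, adjusted p = 0.0177). FOXA1, which opens chromatin at liver genes, was at 18.9 and 29.5 CPM in parental and 44.3 and 54.6 CPM in DMSO cells (1.03 ± 0.25 SE, adjusted p = 0.0399). HNF4A, FOXA2 and CEBPA did not pass the test. HNF4A was at 232 and 203 CPM in parental and 194 and 210 CPM in DMSO cells (-0.11 ± 0.34 SE, adjusted p = 0.887), so that the groups overlapped. FOXA2 had a log2 fold change of 0.38 (adjusted p = 0.386). CEBPA was at 109 and 149 CPM against 178 and 276 CPM (0.79, adjusted p = 0.149), with both DMSO libraries above both parental ones but no call. After GC correction the log2 fold change of CEBPA was 0.36.

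Secreted plasma proteins had 6 higher (17.1%, beside 3.46% of all genes tested) and 0 lower calls among 35 genes tested. Unadjusted there were 14 and 1, in edgeR 5 and 0 and in DESeq2 8 and 1, and the median log2 fold change was 0.86. HAMP encodes hepcidin, the liver hormone that limits iron export into the blood. It was nearly absent from parental cells at 0.0873 and 0.0268 CPM, where 3 reads amount to 0.0402 to 0.0437 CPM, and stood at 3.93 CPM in DMSO replicate 1 but 89.2 CPM in replicate 2. Its log2 fold change of 4.32 ± 0.96 (SE, n = 2, adjusted p = 0.0289) was the highest of all called genes, and the 2 DMSO libraries themselves differed by 4.19 on the log2 scale. A2M, a broad protease inhibitor of plasma, was at 88.4 and 153 CPM in parental cells and at 1019 and 1370.1 CPM in DMSO cells (3.33 ± 0.75 SE, adjusted p = 0.0292). Here the DMSO replicates lay close together. PZP, the A2M-related gene beside it, was at 0.728 and 1.13 CPM against 7.31 and 9.24 CPM (2.27, adjusted p = 0.000426).

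FGL1, a hepatocyte-secreted fibrinogen-like protein, rose from 27.1 and 27.0 CPM to 61.2 and 207 CPM (2.02, adjusted p = 0.0307), with the replicates 1.74 apart on the log2 scale. The acute phase glycoproteins ORM1 and ORM2 are near-identical copies whose reads the unique mapping could split. ORM1 was at 48.9 and 61.0 CPM against 184 and 176 CPM (1.70, adjusted p = 0.0427), and ORM2 had a log2 fold change of 1.72 (adjusted p = 0.0239). SERPINA7, the thyroxine-binding globulin, rose by 0.81 on the log2 scale at 0.437 and 0.643 CPM against 1.59 and 1.82 CPM (adjusted p = 0.0261). Albumin, the main plasma protein, was at 3710.1 and 3629 CPM in parental and at 9739 and 13244 CPM in DMSO cells. Both DMSO libraries stood well above both parental ones, yet the difference of 1.63 ± 0.61 (SE) missed the threshold in limma (adjusted p = 0.129). As for every gene here, this SE rests on the spread over all 16 libraries. A fit of the 4 libraries alone called 0 genes higher and 0 lower. The replicates compared here differed by 0.44 in DMSO and by -0.03 in parental cells on the log2 scale. TTR, the thyroxine and retinol carrier transthyretin, was at 14.7 and 25.6 CPM against 99.6 and 109 CPM (2.37 ± 0.66 SE, adjusted p = 0.0584), also without overlap and without a call. SERPINA1, the antitrypsin gene, had overlapping groups at 268 and 400 CPM against 266 and 492 CPM (0.14, adjusted p = 0.914).

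Apolipoproteins and genes of lipoprotein assembly gave 3 higher (15%, beside 3.46% of all genes tested) and 0 lower calls among 20 tested. Unadjusted there were 10 and 0, in edgeR 3 and 0 and in DESeq2 6 and 0, with a median log2 fold change of 0.63. APOC2, the activator of lipoprotein lipase, was at 69.7 and 60.6 CPM in parental and 244 and 300.2 CPM in DMSO cells, a log2 fold change of 2.04 ± 0.19 (SE, n = 2, adjusted p = 0.000329). The replicates of each group were close, and the gene stayed called without each of the 4 libraries. Reads of APOC2 are shared with the readthrough transcript APOC4-APOC2, whose values were nearly the same. APOA2, a structural protein of HDL, was at 78.7 and 109.8 CPM against 363 and 759 CPM (2.49 ± 0.43 SE, adjusted p = 0.00973), with replicate 2 above replicate 1. APOA1 at 0.55 (adjusted p = 0.609) and APOB at 0.29 (adjusted p = 0.878) did not pass. APOB in parental cells was itself at 1631 CPM in replicate 1 but 3853 CPM in replicate 2.

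Coagulation and complement factors had 9 higher (24.3%, beside 3.46% of all genes tested) and 0 lower of 37 tested. Unadjusted there were 17 and 0, in edgeR 5 and 0 and in DESeq2 11 and 0, and the median log2 fold change was 0.84. Complement factor B, CFB, was at 0.713 and 0.844 CPM in parental cells and 6.11 and 15.5 CPM in DMSO cells (2.61 ± 0.53 SE, adjusted p = 0.0193). C2, its neighbour and relative, was at 5.75 and 5.71 CPM against 17.0 and 33.1 CPM (1.88, adjusted p = 0.0162), and since the ends of the 2 genes overlap, some reads could belong to either. C4BPB, a chain of the C4b-binding protein, was at 2.47 and 3.07 CPM against 13.7 and 17.2 CPM (2.12, adjusted p = 0.0175). All 3 complement genes were apart from parental cells in both DMSO libraries, as was every called gene. KNG1, the kininogen precursor of bradykinin, was at 7.68 and 22.6 CPM against 40.6 and 104 CPM (2.21, adjusted p = 0.0425), with unequal replicates in both groups. SERPING1, the C1 inhibitor, was at 2.82 and 0.938 CPM against 4.95 and 23.5 CPM (2.15, adjusted p = 0.0450), so that replicate 2 carried most of the difference. SERPINC1, antithrombin, was at 0.218 and 0.241 CPM against 1.56 and 3.95 CPM (1.53, adjusted p = 0.0103). F7, PROZ and F12 rose by 1.33, 1.17 and 0.94 on the log2 scale (adjusted p = 0.0498, 0.0309 and 0.0418).

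Drug metabolism enzymes had 4 higher (11.1%, beside 3.46% of all genes tested) and 0 lower calls among 36 tested. Unadjusted there were 9 and 0, in edgeR 4 and 0 and in DESeq2 7 and 0, with a median log2 fold change of 0.42. SULT1A1, a phenol sulfotransferase with a near copy in SULT1A2, was at 13.4 and 14.4 CPM in parental and 38.8 and 66.2 CPM in DMSO cells (1.79 ± 0.25 SE, adjusted p = 0.00304). CYP4F3, a fatty acid hydroxylase, was at 1.28 and 0.643 CPM against 3.56 and 7.81 CPM (1.71, adjusted p = 0.00334). Both were clear of the parental values in both DMSO libraries, as was every called gene. CYP2B6, a xenobiotic-inducible cytochrome, was at 2.05 and 2.38 CPM against 5.49 and 14.5 CPM (1.64, adjusted p = 0.0362), and GSTA4 had a log2 fold change of 0.79 (adjusted p = 0.0488). CYP3A4, the main drug-metabolizing cytochrome of adult liver, stayed under the filter at 0.0728 and 0.0670 CPM against 0.317 and 0.488 CPM. Its fetal relative CYP3A7 was at 1.03 and 1.22 CPM against 1.78 and 4.51 CPM (0.88, adjusted p = 0.342).

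None of the 22 tested genes of bile acid synthesis and hepatic transport was called in limma, with 3 higher at an unadjusted p under 0.05, 0 calls in edgeR and 3 in DESeq2. SLC10A1, the bile acid uptake carrier NTCP, was at 0 CPM in 3 libraries and at 0.0144 CPM in DMSO replicate 2. Gluconeogenesis, the urea cycle and amino acid catabolism had 4 higher (10.5%, beside 3.46% of all genes tested) and 0 lower calls among 38 tested. Unadjusted there were 12 and 0, in edgeR 3 and 0 and in DESeq2 8 and 0. FBP1, a gluconeogenic fructose bisphosphatase, was at 1.11 and 1.19 CPM in parental and 12.8 and 15.5 CPM in DMSO cells. This difference of 2.81 ± 0.23 (SE, n = 2, adjusted p = 0.000216) was large against the spread of both groups. HAL, the first enzyme of histidine breakdown, was at 3.58 and 12.1 CPM against 28.1 and 45.9 CPM (2.25, adjusted p = 0.0311). ARG1, the last enzyme of the urea cycle, was at 0.146 and 0.254 CPM against 1.46 and 7.21 CPM (1.91, adjusted p = 0.0349), and MAT1A, the liver form of methionine adenosyltransferase, rose by 1.20 on the log2 scale (adjusted p = 0.0450). ARG1 and MAT1A were higher in replicate 2 than in replicate 1 by 1.74 and 1.27. CPS1, the entry enzyme of the urea cycle, was at 1.16 and 1.51 CPM against 1.32 and 1.16 CPM and differed by -0.06, with overlapping groups. PCK1, which makes phosphoenolpyruvate, was at 0.0146, 0 and 0.0138 CPM in both parental libraries and DMSO replicate 1 and at 2.04 CPM in DMSO replicate 2. Of 24 oncofetal and progenitor genes limma called PROM1 higher (4.17%, beside 3.46% of all genes tested) and 0 lower. Unadjusted there were 2 and 1, in edgeR 1 and 1 and in DESeq2 3 and 1. PROM1, a surface marker of progenitor cells, was at 105 and 121 CPM against 303 and 211 CPM (1.16, adjusted p = 0.0190). AFP, the fetal serum protein, was at 3549 and 6269 CPM against 5476 and 7222 CPM (0.41, adjusted p = 0.675), and GPC3, an HCC surface marker, differed by 0.47 (adjusted p = 0.587), so that both missed the threshold.

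The 10 highest called genes include HAMP, A2M and FBP1. SCNN1A, the alpha subunit of the epithelial sodium channel (GRCh37 chr12:6456009-6486896), was at 0.306 and 0.603 CPM in parental cells, 5.61 CPM in DMSO replicate 1 but 105 CPM in replicate 2 (4.20 ± 0.86 SE, adjusted p = 0.0202). HPN, the liver serine protease hepsin (chr19:35531410-35557477), was at 1.82 and 1.47 CPM against 9.21 and 108 CPM (3.66, adjusted p = 0.0338). Like every gene called higher, both were above parental cells in both libraries. Replicate 2 was 4.01 and 3.41 higher than replicate 1 on the log2 scale. The core histone gene H2BC1 (chr6:25727005-25727573) had the opposite order at 1.35 and 1.41 CPM against 34.1 and 15.3 CPM (3.33 ± 0.25 SE, adjusted p = 0.000103), and its neighbour H2AC1 was at 0.233 and 0.415 CPM against 7.72 and 3.88 CPM (2.30, adjusted p = 0.000308). ASGR1, a subunit of the hepatocyte asialoglycoprotein receptor, was at 3.57 and 4.15 CPM against 22.2 and 69.5 CPM (3.06, adjusted p = 0.00510). Its partner subunit ASGR2 rose from 47.4 and 48.2 CPM to 137 and 165 CPM (1.64, adjusted p = 0.00728). LINC01610 (3.21), SMAD9, which carries BMP signals to the nucleus (2.87), and TMPRSS6, a protease that lowers hepcidin (2.70), complete the 10.

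The 10 lowest called genes were led by DPYSL3, a cytoskeletal protein of growing axons (chr5:146770371-146889631), at 225 and 117 CPM in parental and 33.7 and 13.2 CPM in DMSO cells (-2.88 ± 0.46 SE, adjusted p = 0.00636). PTPRZ1, a receptor tyrosine phosphatase of neural cells, was at 55.7 and 64.4 CPM against 10.3 and 9.32 CPM (-2.49, adjusted p = 0.00566). NNMT, which methylates nicotinamide, was at 28.3 and 11.5 CPM against 3.53 and 2.26 CPM (-2.32, adjusted p = 0.00229). All 3 were lower in both DMSO libraries than in either parental one, as was every gene called lower. MYOCD, a coactivator of smooth muscle genes, was at 5.81 and 14.1 CPM against 0.621 and 1.68 CPM (-2.28, adjusted p = 0.00461). STAC, an adaptor protein, was at 41.6 and 35.3 CPM against 8.96 and 7.47 CPM (-2.10, adjusted p = 0.000733). In these genes too, both DMSO libraries were below both parental ones, though the parental replicates of MYOCD and NNMT were themselves more than 2-fold apart. The remaining 5 were NEGR1 (-2.17), PTX3 (-2.12), LRRN3 (-2.04), PCSK5 (-2.03) and MMP24 (-2.01). Of the 20 highest and lowest genes, H2BC1, LINC01610, ASGR1, FBP1, PTPRZ1, NNMT, MYOCD, PTX3 and STAC stayed called without each of the 4 libraries.

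In all, 85 calls held when each of the 4 libraries was left out in turn, 65 higher and 20 lower. Of the hepatocyte genes APOC2, FBP1, CYP4F3 and SULT1A1 were among them. The 85 also held genes of other kinds, of which 4 are given here, chosen after their values were seen. PRDX6, an antioxidant enzyme, was at 163 and 163 CPM in parental and 259 and 260.4 CPM in DMSO cells (0.67). EGF, the epidermal growth factor, was at 0.640 and 0.308 CPM against 4.37 and 6.48 CPM (2.11), and CD9, a tetraspanin, at 22.3 and 12.7 CPM against 52.0 and 91.7 CPM (1.97). PAPPA, a protease that releases IGFs from their binding proteins, was at 24.9 and 23.0 CPM against 9.49 and 9.65 CPM (-1.24).

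The 2 DMSO libraries disagreed with each other more than most replicate pairs of the series. At a limit of 2-fold in CPM + 1, 1011 genes (6.73%) were higher in replicate 2 and 144 (0.959%) in replicate 1. The pair of parental Huh7 libraries had 41 and 100 such genes and the Hep3B DMSO pair 61 and 9, and of the other pairs Huh7 IR had 581 and 529. The SD of the difference was 0.571 in Huh7 DMSO and 0.289 in parental Huh7 cells. Of the 1011 genes higher in replicate 2, 909 were at least 2-fold above the parental mean in replicate 2 and 79 in replicate 1. Of the 144 genes higher in replicate 1, 95 were at least 2-fold below the parental mean in replicate 2 and 8 in replicate 1, so for most of them it was replicate 2 that had left the parental level. Among the disagreeing genes, 143 were called and 1012 were not.

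The disagreement moved with the base composition of the transcripts. Median GC content was 58.1% in the genes higher in replicate 2 and 40.0% in those higher in replicate 1, beside 47.5% in all genes tested. Across 14723 genes with a GC value the difference between DMSO replicates had a Spearman correlation of 0.51 with GC content, and that between parental replicates of -0.52. This is a description across genes, which share the libraries and are not independent. After the trend along GC content was taken out of each library, 698 genes were at least 2-fold higher in replicate 2 and 91 in replicate 1. The part of library preparation in these differences was not tested.

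The genes furthest apart were mostly close to silent in the other 3 libraries. LGALS14, a placental galectin, was at 0.698 and 0.362 CPM in parental cells, 2.29 CPM in DMSO replicate 1 but 134 CPM in replicate 2, a difference of 5.35 on the log2 scale. UCA1, a long noncoding RNA, was at 4.31, 11.8, 4.70 and 188 CPM in the same order (5.05), and ENO2, the neuronal form of enolase, at 2.62, 0.964, 1.61 and 70.5 CPM (4.77). In each case DMSO replicate 2 stood alone. PNCK reached 25.1 CPM in replicate 2 from 0.0414 CPM in replicate 1 (4.65). H19, the imprinted RNA beside IGF2, was at 2.01 and 2.25 CPM in parental cells, 1.26 CPM in DMSO replicate 1 but 46.3 CPM in replicate 2 (4.39). CCDC183 (4.36), LGI4 (4.21) and HAMP (4.19) followed, and LGI4 was at 0 CPM in the other 3 libraries and 17.5 CPM in replicate 2. Of these 8 genes HAMP alone was called. In the other direction the differences were smaller, from -2.08 to -1.65. FAM111B, a gene of the S phase, was at 38.3 and 49.6 CPM in parental cells, 55.3 CPM in DMSO replicate 1 but 12.3 CPM in replicate 2 (-2.08), and NRP2, a semaphorin and VEGF coreceptor, was at 75.2, 57.8, 51.9 and 15.1 CPM (-1.72). CHML, a Rab escort protein, was at 256 and 286 CPM in parental cells and split to 450.2 CPM in replicate 1 but 143 CPM in replicate 2 (-1.65). MBL1P, CCDC198, LRRN3, B3GALNT1 and BIRC3 lay between, at -1.73, -1.69, -1.68, -1.68 and -1.67, and LRRN3 alone of these 8 was called.

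Of the hepatocyte genes, 40 of 218 were at least 2-fold higher in DMSO replicate 2, beside 6.73% of all genes tested, and 3 were at least 2-fold higher in replicate 1, SLC38A4 and ATF5 among them. Replicate 2 was above both parental libraries in 169 of the 218 genes and replicate 1 in 141, beside 7572 and 5952 of the 15019 genes tested. At least 2-fold above the parental mean were 89 genes in replicate 2 and 40 in replicate 1, and of the 30 called genes 29 and 22. The median change over the list in replicates 1 and 2 was 0.63 and 1.01 for plasma proteins, 0.43 and 0.96 for apolipoproteins and 0.64 and 1.11 for coagulation and complement factors. For transcription factors it was 0.06 and 0.46.

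Hypoxia-induced genes separated the replicates more than any other list used here. Of 64 genes tested, 34 were at least 2-fold higher in replicate 2 and 0 in replicate 1, and after GC correction these counts were 33 and 0. The median change from the parental mean was 0.04 in replicate 1 and 1.13 in replicate 2. DMSO replicate 2 lay above both parental libraries in 58 of the 64 genes, while replicate 1 lay above them in 27, below them in 20 and between them in 17. Over all 15019 genes tested, replicate 2 lay above both parental libraries in 7572, and replicate 1 lay above them in 5952, below them in 4787 and between them in 4280, so that the counts of replicate 1 were near this background. In Hep3B DMSO cells 8 of the 64 genes were at least 2-fold higher in replicate 2, beside 61 of all 15019 genes tested. The median difference between the Hep3B DMSO replicates was 0.38 over the list and 0 over all genes tested. DDIT4, an inhibitor of mTORC1, was at 2.62 and 3.07 CPM in parental cells, 1.93 CPM in DMSO replicate 1 but 39.5 CPM in replicate 2. BHLHE40, a repressor of the clock and of the cell cycle, was at 48.9 and 57.7 CPM in parental cells, 22.4 CPM in replicate 1 but 221 CPM in replicate 2, and thus was below the parental level in one replicate and above it in the other. CA9, the carbonic anhydrase of hypoxic tumor cells, was at 0.0582, 0.0402, 0.152 and 9.15 CPM. The glycolytic regulator PFKFB4 was at 2.08, 3.35, 4.76 and 59.6 CPM. For these 4 genes the differences between replicates were 3.79, 3.24, 3.14 and 3.40 on the log2 scale, and replicate 2 was far above the other 3 libraries. PPFIA4, a liprin scaffold protein, was at 0.247, 0.335, 0.469 and 18.7 CPM (3.75). NDRG1, a stress-induced gene, was at 101 and 59.0 CPM in parental cells and at 66.3 and 415 CPM in the DMSO replicates, and VEGFA, the main angiogenic factor, at 82.2 and 73.1 CPM against 76.4 and 163 CPM. LDHA, lactate dehydrogenase, was high in all libraries, at 1738 and 1885 CPM against 1456 and 2245 CPM. In limma 2 genes of the list rose and 0 fell (unadjusted 21 and 1, edgeR 3 and 0, DESeq2 21 and 1), which is 3.12% higher beside 3.46% of all genes tested. P4HA1, a collagen prolyl hydroxylase subunit, was at 60.4 and 58.2 CPM against 128 and 242 CPM (1.55, adjusted p = 0.0223), and RNASE4 at 11.5 and 10.8 CPM against 25.9 and 85.4 CPM (1.98, adjusted p = 0.0202).

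**Figure D3:**
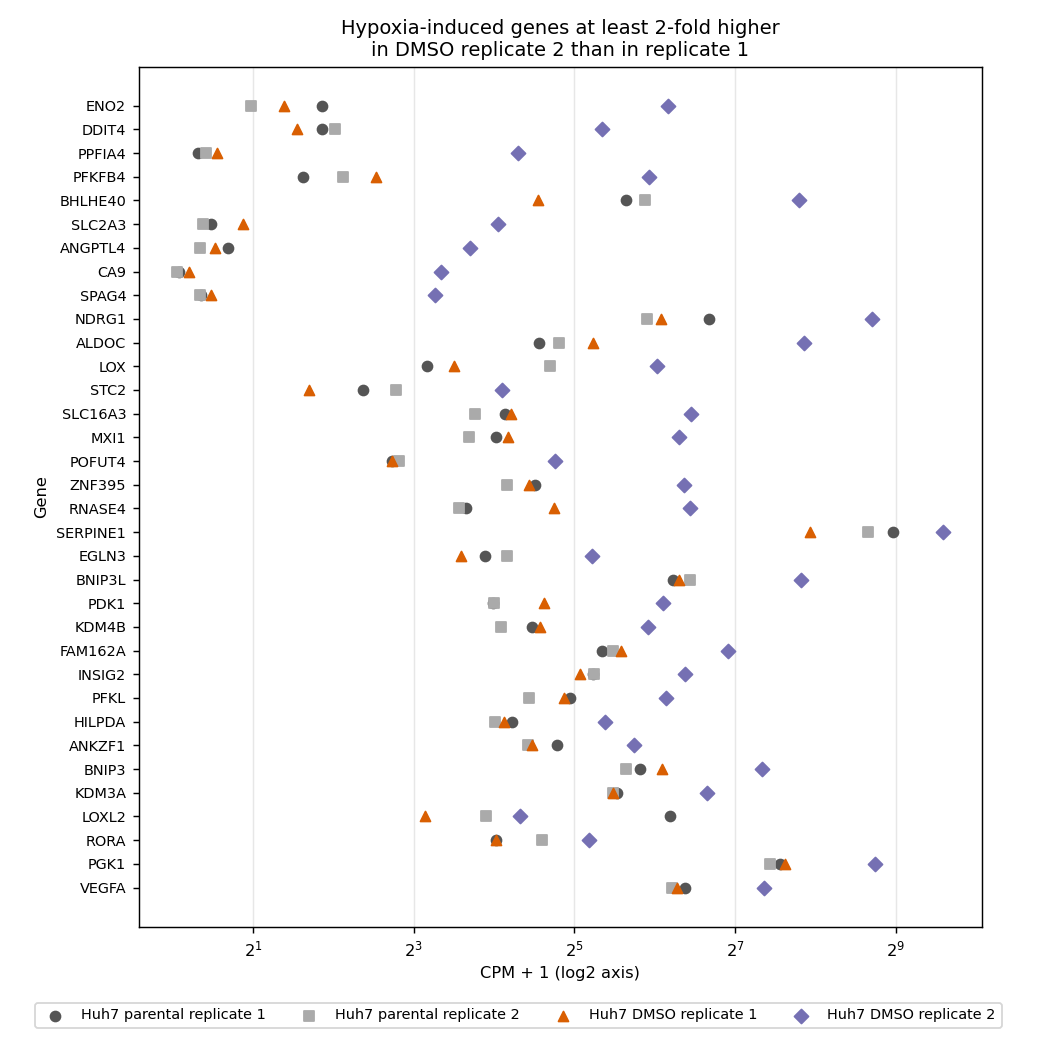
The 34 hypoxia-induced genes at least 2-fold higher in DMSO replicate 2 than in replicate 1, with CPM + 1 of each of the 4 Huh7 libraries on a log2 axis. DMSO replicate 1 mostly lies near the 2 parental libraries, as for DDIT4 at 1.93 beside 2.62 and 3.07 CPM, and replicate 2 to the right of them, at 39.5 CPM.

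The starts of 3 of these genes show the letters that HIF1A binds, and the start of HAMP is given beside them as the called gene with the widest split between replicates. Each is the 180 bases before the gene's start on the plus strand, from RefSeq on GRCh38.p14, at chr12:6914400-6914579 for ENO2, chr10:72273744-72273923 for DDIT4, chr1:203026311-203026490 for PPFIA4 and chr19:35282348-35282527 for HAMP. Capitals mark ACGTG, found on either strand, and in HAMP, which has no ACGTG in this window, GGCGCC. The letters GGCGCC also occur in the ENO2 sequence, where they are not marked.
ENO2: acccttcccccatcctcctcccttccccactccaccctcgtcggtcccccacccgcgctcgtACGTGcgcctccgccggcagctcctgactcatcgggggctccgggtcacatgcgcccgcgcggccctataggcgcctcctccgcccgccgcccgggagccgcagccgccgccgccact
DDIT4: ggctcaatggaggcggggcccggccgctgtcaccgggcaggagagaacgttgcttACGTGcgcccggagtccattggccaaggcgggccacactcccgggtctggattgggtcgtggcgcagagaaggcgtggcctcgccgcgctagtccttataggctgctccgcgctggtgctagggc
PPFIA4: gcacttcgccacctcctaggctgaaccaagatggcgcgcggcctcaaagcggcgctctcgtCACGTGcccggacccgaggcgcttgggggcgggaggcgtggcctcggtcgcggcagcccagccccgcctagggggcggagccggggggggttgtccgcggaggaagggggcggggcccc
HAMP: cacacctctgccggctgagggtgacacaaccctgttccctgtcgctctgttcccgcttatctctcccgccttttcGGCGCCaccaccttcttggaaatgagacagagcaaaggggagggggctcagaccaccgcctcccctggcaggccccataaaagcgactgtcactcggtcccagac
The match begins 118 bases before the start of ENO2 and 125 bases before that of DDIT4. In PPFIA4 the palindrome CACGTG gives a match on each strand at 119 and 118 bases. Over the 250 bases before the start, on both strands, ACGTG was present in 21.7% of 27305 promoters and in 28.2% of the 11742 belonging to genes tested. It was present in 35 of 53 hypoxia-induced genes with a promoter (66%) and in 17 of the 24 of them that were higher in replicate 2 (70.8%). The list was made of genes induced by low oxygen, so that the high share belongs to the list and not to these libraries. The 3 genes printed above were picked, and not all of the 24 hold the letters. Of all genes higher in replicate 2 it was present in 195 of 726 (26.9%), and of the genes called higher in 109 of 397 (27.5%). GGCGCC was present in 30.5% of the promoters of genes tested. These matches describe letters and not binding.

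Genes of cholesterol and fatty acid synthesis had a median log2 fold change of 0.87 over 37 genes tested, with a median of 0.41 in DMSO replicate 1 and 1.32 in replicate 2. The parental libraries were themselves at least 2-fold apart in 13 of the 37. HMGCS1, an early enzyme of the cholesterol pathway, was at 614 and 1863 CPM in parental cells and at 1773 and 3288 CPM in DMSO cells, so that parental replicate 2 overlapped the DMSO range. INSIG1, a sterol sensor, was at 39.5 and 134 CPM against 105 and 344 CPM. FASN, fatty acid synthase, was at 116 and 116 CPM in parental cells, 122 CPM in replicate 1 but 459 CPM in replicate 2. Limma called 2 genes higher (5.41%, beside 3.46% of all genes tested) and 0 lower. Unadjusted there were 22 and 0, in edgeR 1 and 0 and in DESeq2 11 and 0. IDI1, which isomerizes isopentenyl diphosphate, was at 60.3 and 132 CPM against 209.5 and 321 CPM (1.52, adjusted p = 0.0362), and PNPLA3, a lipid droplet enzyme, was at 2.71 and 6.92 CPM against 10.4 and 37.6 CPM (1.95, adjusted p = 0.0362).

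Heat shock and oxidative stress genes had a median log2 fold change of -0.31 over 29 tested, with 1 higher and 1 lower call. Each is 3.45%, beside 3.46% higher and 1.37% lower over all genes tested. Unadjusted there were 1 and 9, in edgeR 0 and 1 and in DESeq2 1 and 6. NQO1, an antioxidant quinone reductase, was at 239 and 320 CPM in parental and 674 and 775 CPM in DMSO cells (1.38, adjusted p = 0.0457). MT1X, a metallothionein with near-identical relatives, was at 31.6 and 15.0 CPM in parental and 5.92 and 3.88 CPM in DMSO cells (-1.97, adjusted p = 0.0175). The chaperone HSPA8 was at 3784 and 4037 CPM in parental cells, 3278 CPM in DMSO replicate 1 but 1489 CPM in replicate 2, and HSP90AA1 at 2356, 2667, 2192 and 956 CPM. HSPH1, a cochaperone of HSPA8, was at 462, 499.7, 428 and 159 CPM. In all 3 chaperones it was replicate 2 that stood low. Of 49 cell cycle and DNA replication genes limma called 0 (unadjusted 1 higher and 3 lower, edgeR 1 and 0, DESeq2 1 and 1), with medians of 0.02 in replicate 1 and -0.32 in replicate 2. CDKN1A, the CDK inhibitor p21, was at 2.44 and 1.03 CPM in parental cells, 2.63 CPM in replicate 1 but 27.1 CPM in replicate 2. In 50 cytosolic ribosomal protein genes the median was 0.02 with 0 calls in limma (unadjusted 1 and 0, edgeR 0, DESeq2 0), and in 41 respiratory chain genes it was 0.04 with 0 calls in limma (unadjusted 1 and 0, edgeR 0, DESeq2 1).

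**Figure D4:**
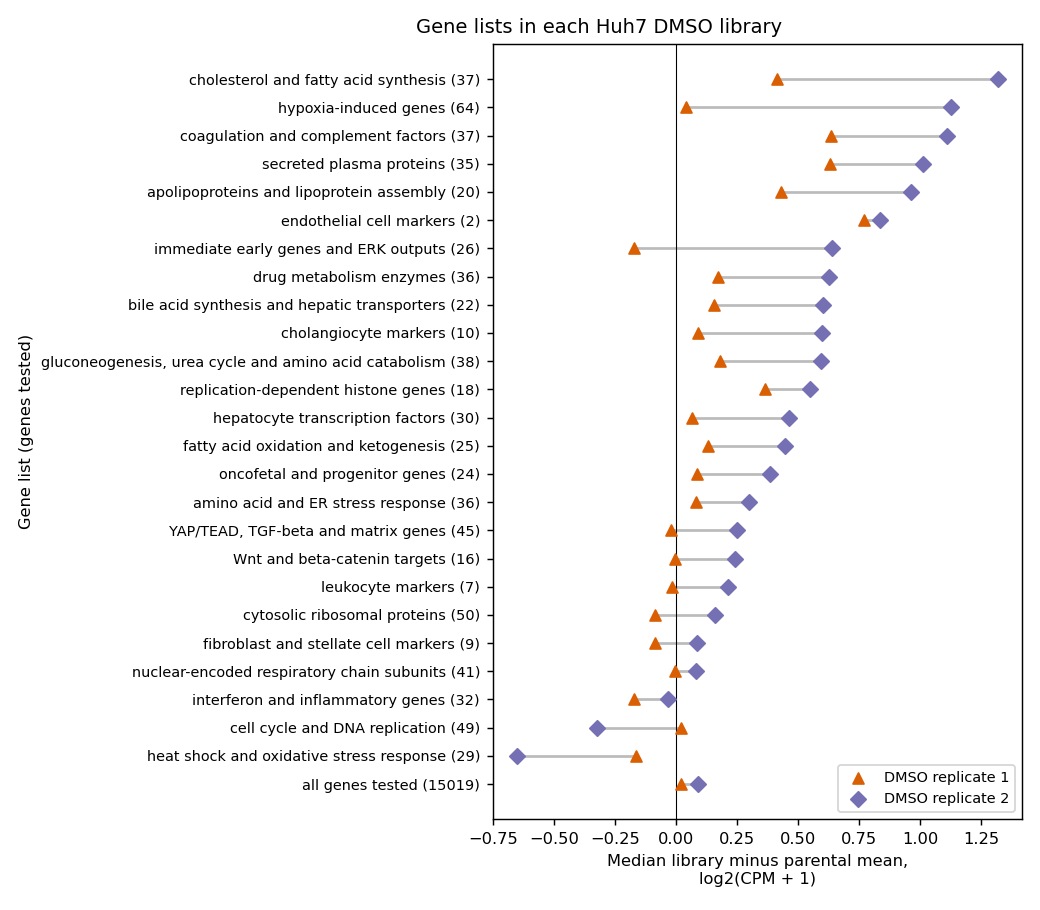
Median difference of log2(CPM + 1) from the parental mean over the genes of each list, separately for the 2 Huh7 DMSO libraries. The lists lie further from 0 in replicate 2 in most cases, with 0.04 and 1.13 for hypoxia-induced genes and 0.63 and 1.01 for secreted plasma proteins.

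Single genes of other lists were called as well. CDH1, the epithelial cadherin, was at 33.6 and 28.0 CPM in parental and 69.2 and 282 CPM in DMSO cells (2.15, adjusted p = 0.0311), above in both libraries and 2.01 higher in replicate 2. DUSP6, a feedback phosphatase of ERK, was at 20.7 and 23.4 CPM against 57.3 and 77.3 CPM (1.55, adjusted p = 0.0170). PHLDA1, another gene of early growth factor responses, was at 118 and 83.1 CPM against 63.1 and 59.7 CPM (-0.68, adjusted p = 0.0427). The chemokine CXCL5 was at 171 and 108 CPM against 63.0 and 33.6 CPM (-1.54, adjusted p = 0.0313). THBS1, a matrix glycoprotein that activates TGF-beta, fell from 907 and 911 CPM to 360.3 and 196 CPM (-1.77, adjusted p = 0.00586). The linker histones H1-3 and H1-4 rose by 1.24 and 1.15 on the log2 scale (adjusted p = 0.0275 and 0.0420). Of 16 Wnt target genes TNFRSF19, a receptor of the TNF family, fell by 1.32 on the log2 scale (adjusted p = 0.0368) and RHBG, an ammonium transporter, rose by 0.79 (adjusted p = 0.0244). Among the markers of other cell types CD3D (1.48, adjusted p = 0.00461), a T cell receptor subunit at 1.57 and 0.616 CPM against 3.99 and 5.47 CPM, and CFTR (0.75, adjusted p = 0.0143), a chloride channel of bile duct cells, were called, while CD3E, the partner of CD3D in T cells, was at 0 to 0.0431 CPM.

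The same comparison in Hep3B cells, whose libraries are separate from those of Huh7, gave 160 higher (1.07%) and 77 lower (0.513%) calls. Both comparisons come from the same fit and use the same SE for a gene, so that calls in both lines are not independent. In Hep3B 18 of the 218 hepatocyte genes were called higher and 0 lower in limma, with a median log2 fold change of 0.56, beside 30 and 0.55 in Huh7. A test of the difference between the lines called 91 genes (0.606%), 56 with a higher and 35 with a lower change in Huh7, and of the hepatocyte genes only APOC2 and SLC2A2. This count was 1024 without Huh7 DMSO replicate 1 and 143 without either Huh7 IR library, and 55 and 58 without Huh7 parental replicates 1 and 2. It was 43 and 33 without Hep3B DMSO replicates 1 and 2 and 27 without Hep3B parental replicate 1. A2M changed by 3.33 in both lines. FBP1 rose by 2.81 in Huh7 and by 1.74 in Hep3B cells (adjusted p = 0.00338), CFB by 2.61 and 2.82 (adjusted p = 0.0213), and no difference was called for these 3. APOC2 was at 111 and 122 CPM in parental and 128 and 163 CPM in DMSO cells of Hep3B (0.31), and the lines differed by 1.73 (adjusted p = 0.0148).

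SEMA5A, a semaphorin of axon guidance, was at 0.684 and 0.362 CPM in parental and 5.46 and 11.2 CPM in DMSO cells of Huh7 (2.55, adjusted p = 0.00107). In Hep3B it was at 21.3 and 27.8 CPM in parental and 2.65 and 4.87 CPM in DMSO cells (-2.45, adjusted p = 0.00209). The changes had opposite directions and differed by 5.00 ± 0.42 (SE, adjusted p = 0.00039). MAGEA3, a cancer-testis antigen on the X chromosome with close copies, changed by 1.62 in Huh7 and by -2.79 in Hep3B cells. ARRDC4, an arrestin domain protein of glucose uptake, rose by 2.20 in Huh7 (adjusted p = 0.00255) and had a log2 fold change of -1.24 in Hep3B cells (adjusted p = 0.0620, not called). COL4A5, a chain of basement membrane collagen, was at 99.6 and 89.3 CPM against 97.1 and 78.8 CPM in Huh7 (-0.11), while in Hep3B it was at 1.84 and 2.55 CPM against 35.0 and 48.5 CPM (3.73), a difference of -3.84 (adjusted p = 0.0195). CADPS, a factor of vesicle release, differed by -2.92 and L1CAM, a neural adhesion protein, by -2.83 between the lines.

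**Figure D5:**
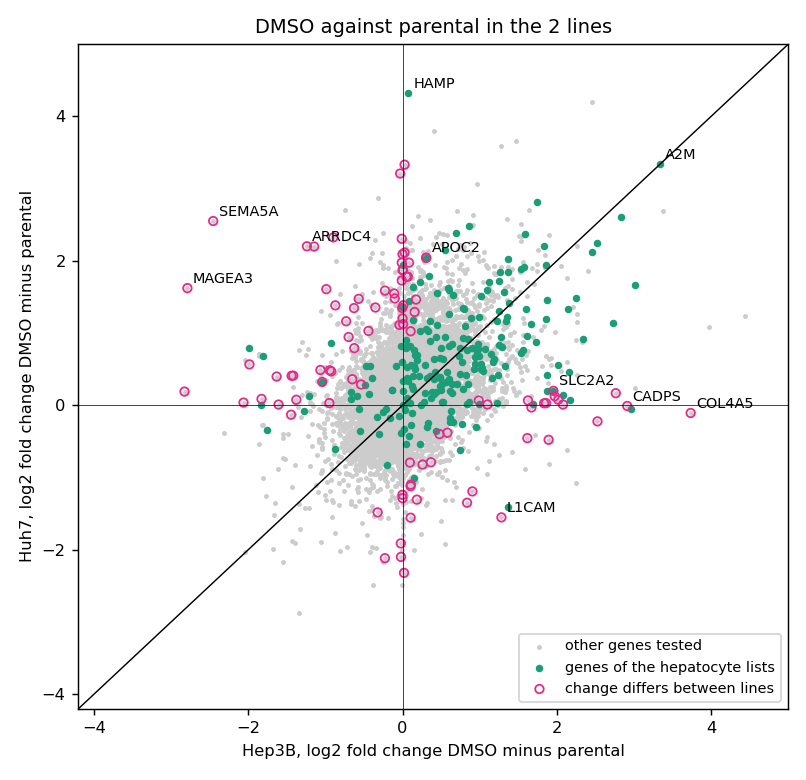
Log2 fold change of DMSO against parental cells in Huh7 and in Hep3B, with hepatocyte genes in green, genes whose change differed between the lines circled and equal change on the diagonal. SEMA5A stands at 2.55 in Huh7 and -2.45 in Hep3B, and COL4A5 at -0.11 and 3.73.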

How the data were processed

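Single-end RNA sequencing was done on poly(A) RNA in 16 libraries, and 4 of them, grouped by their titles, are compared here. The authors mapped reads to hg19 with RNA-STAR, kept unique hits, counted them over RefSeq exons with QuasR and deposited CPM under 26258 gene IDs. A symbol was found for 26111 of these. Whether the counting used strand is not given in the sources used here, so overlapping and antisense genes are uncertain. The methods state biological triplicates, a total RNA kit and another sequencer than the labels, which give an mRNA kit. In the deposited CPM, 100% of values were whole reads within 0.05 reads, and these recovered reads served the count tests. No per-sample column was left out.

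The main test was limma 3.58.1 (R 4.3.3) on log2(CPM + 1), with its trend option. It covered the 15019 genes that reached 1 CPM in 2 or more libraries. All 16 libraries in 8 groups shared the spread (8 residual degrees of freedom). A call needed a log2 fold change of 0.58 or more in size together with a Benjamini-Hochberg adjusted p under 0.05. The change in Huh7 minus that in Hep3B was an interaction contrast. Differences between replicates of at least 2-fold in CPM + 1 were counted without a test. GC content and coordinates are from GENCODE on GRCh37, and 98.0% of genes tested had a GC value.

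Named genes were the 10 highest and 10 lowest called, the 8 furthest apart between DMSO replicates in each direction, all called hepatocyte genes, 20 fixed liver and hypoxia genes, the 3 largest differences between lines in each direction, and up to 4 genes by change and 4 by replicate difference in other lists. The groups, the 25 gene lists and the rules were chosen with earlier results of these data known. Alternatives were edgeR 4.0.16 and DESeq2 1.42.0 on recovered reads, TMM factors, quantile normalization, GC correction, array weights, other filters and pseudocounts, fits of fewer libraries, replicate blocks, and leaving out each library. The fits were tested on simulated counts. Tests of 2 against 2 libraries rest on the spread shared across genes. Some genes that the rule names are not reported here.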

Additional observations from a re-analysis of the deposited data

Results flagged for a closer look

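For 16 of the genes named here the interaction contrast in limma found that the change from parental to DMSO cells differed between Huh7 and Hep3B (adjusted p from 0.00039 to 0.0470). The contrast is the log2 fold change in Huh7 minus that in Hep3B, and 91 of 15019 genes tested passed it.

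SEMA5A, MAGEA3, ARRDC4 and PROM1 were called higher in Huh7 and had a negative log2 fold change in Hep3B cells, which was itself called for SEMA5A and MAGEA3. The difference was 5.00 for SEMA5A (2.55 in Huh7 and -2.45 in Hep3B), 4.41 for MAGEA3 (1.62 and -2.79), 3.44 for ARRDC4 (2.20 and -1.24) and 1.89 for PROM1 (1.16 and -0.73). L1CAM, called lower in Huh7, had a difference of -2.83 (-1.55 and 1.28, the latter not called).

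Genes that changed in Huh7 and had a change near 0 in Hep3B cells, from -0.23 to 0.31, were H2BC1 with a difference of 3.30, LINC01610 with 3.24, APOC2 with 1.73, CD3D with 1.58, PTX3 with -1.89, STAC with -2.08 and NNMT with -2.34. H2BC1 was at 0 to 0.0516 CPM in the 4 Hep3B libraries, so that a fall was not detectable in that line at this depth.

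The other 4 genes had the larger change in Hep3B cells and were not called in Huh7. The difference was -3.84 for COL4A5 (-0.11 in Huh7 and 3.73 in Hep3B), -2.92 for CADPS (-0.01 and 2.91), -2.75 for PEG10, an imprinted retrotransposon-derived gene (-0.22 and 2.53), and -1.75 for SLC2A2, the hepatocyte glucose transporter GLUT2 (0.20 and 1.95). SLC2A2 was at 0.233 and 0.188 CPM in parental and 0.469 and 0.316 CPM in DMSO cells of Huh7, near the lower end of what was tested.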

How the results depend on the processing

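A group size of 2 libraries and unequal DMSO replicates limit this comparison, since the number of calls rests on which library is counted and on where the spread is taken from, and a GC trend that differs between replicates lies over the changes. Leaving out one library at a time gave 108 to 2361 higher and 31 to 1203 lower calls, 4 to 74 hepatocyte calls and 27 to 1024 genes that differed between the lines. Of the genes named, only MBL1P changed direction past a threshold, to -0.64 without Huh7 DMSO replicate 1 (0.23 with all libraries, and up to 1.09 without Huh7 DMSO replicate 2). The causes of the shifts that follow were not tested, apart from those that fewer libraries or genes bring by construction.

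DESeq2 called 1284 higher and 549 lower, 50 hepatocyte genes and 409 differences between lines, and edgeR called 568 and 244, 24 and 35. Of the 726 limma calls, edgeR shared 546 and DESeq2 658. An unadjusted p gave 1603 and 568. GC correction gave 381 lower calls, a mean of at least 5 CPM 331 higher calls and 49 differences between lines, and no filter 278 and 104 with 13 hepatocyte genes. Array weights gave 115 and 22 with 4 hepatocyte genes, and the Huh7 libraries alone 22 and 7 with 3. The 4 libraries alone gave 0 higher, 0 lower and 0 hepatocyte calls (unadjusted 833, 381 and 65).

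Replicates share numbers, but nothing in the labels pairs them, and the DMSO and parental replicate differences had a correlation of -0.22 across genes. With a replicate block, the 4 libraries gave 0, 0 and 0 calls (unadjusted 851, 367 and 76), and all libraries 568 higher and 254 lower calls, 37 hepatocyte genes and 98 differences between lines. With GC correction and a replicate block, the 4 libraries gave 66 and 31 calls with 18 hepatocyte genes, and all libraries 474 lower calls. A crossed replicate block, chosen after seeing the data, gave 0 higher, 0 lower and 0 hepatocyte calls (unadjusted 1455, 463 and 86).

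The number of genes higher in DMSO replicate 2 was 670 at a mean of at least 5 CPM, 1520 and 503 with pseudocounts of 0.25 and 4 CPM and 671 after quantile normalization. The number higher in replicate 1 was 91 after GC correction, 90 with the pseudocount of 4 CPM and 286 after quantile normalization. Replicate 2 had the larger number in each of these.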

Other observations

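Genes of BMP signaling and hepcidin control were looked at together after HAMP, SMAD9 and TMPRSS6 had been seen among the highest calls, so these values are a description. BMP6 and BMP2 act through the coreceptor HJV and SMAD proteins to induce HAMP, and TMPRSS6 removes HJV from the cell surface. Beside HAMP (4.32), SMAD9 (2.87) and TMPRSS6 (2.70), the genes HJV, ATOH8, TFR2 and SMAD6 were called higher. HJV was at 0.437 and 0.964 CPM in parental and 4.94 and 14.0 CPM in DMSO cells (2.49, adjusted p = 0.00323). ATOH8, a BMP-induced transcription factor, was at 0.306 and 0.107 CPM against 3.52 and 12.6 CPM (2.70, adjusted p = 0.0199). In both genes DMSO replicate 1 was above the parental libraries and replicate 2 was higher again. TFR2, an iron-sensing transferrin receptor, was at 2.62 and 1.25 CPM against 4.99 and 19.4 CPM (1.95, adjusted p = 0.0267), and SMAD6, a feedback inhibitor, at 8.41 and 5.71 CPM against 13.2 and 38.3 CPM (1.57, adjusted p = 0.0353).

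The other genes looked at around this pathway were not called, and over all genes tested 3.46% were called higher. ID1, a direct BMP target, had a log2 fold change of 1.14 (adjusted p = 0.187), and the ligands BMP2 and BMP6 of 0.62 and -0.08. For ID2, ID3, SMAD7 and HFE it was 0.86, 0.96, 0.40 and -0.36 (adjusted p = 0.192, 0.278, 0.365 and 0.509 in limma). BMP2 was at 264 and 264 CPM in parental and 401 and 410.2 CPM in DMSO cells, without overlap. The iron exporter SLC40A1 differed by 0.70 and the transferrin receptor TFRC by -0.55. In Hep3B cells the log2 fold changes of the 7 genes called in Huh7 were 1.63 for TMPRSS6, 0.91 for HJV, 0.75 for TFR2, 0.08 for HAMP, -0.32 for SMAD9, -0.39 for SMAD6 and -0.75 for ATOH8. No difference between the lines was called for these 7 (lowest adjusted p = 0.0589 in limma).

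HPN and HAMP, among the highest calls and far apart between the DMSO replicates, lie on the same 245 kb of chromosome 19 (GRCh37 chr19:35531410-35776046), together with LGI4. Of 6 genes tested in this window, 4 were at least 2-fold higher in DMSO replicate 2 than in replicate 1, beside 6.73% of all genes tested. The differences were 4.21 for LGI4, 4.19 for HAMP, 3.41 for HPN and 1.25 for USF2, and FXYD5 and LSR differed by 0.98 and 0.60. GC content of the 6 genes was 54.0% to 64.8%, and its median over all genes higher in replicate 2 was 58.1%. The part of base composition in these differences was not tested. Of the 6 genes, HPN and HAMP were called higher than in parental cells, beside 3.46% of all genes tested. The window was drawn from the start of HPN to the end of HAMP after these values were seen. Both counts thus hold these 2 genes by construction, and setting them beside the shares of all genes is no test.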
